A study of Sus scrofa with 13 samples.

Results

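Aerobic cells turn some of the oxygen they use into superoxide and hydrogen peroxide, and a small set of enzymes removes both. Superoxide dismutases convert superoxide into hydrogen peroxide, and catalase, glutathione peroxidases and peroxiredoxins then reduce the peroxide to water. Glutathione peroxidases draw on glutathione and most peroxiredoxins on thioredoxin, and both are recharged with NADPH. Heart muscle, with its dense mitochondria, depends on these enzymes after the loss of blood supply and its return.

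The genes described here are the glutathione peroxidases GPX1, GPX3 and GPX4, the peroxiredoxins PRDX2, PRDX3, PRDX4 and PRDX5, the superoxide dismutases SOD1 and SOD2, and catalase, CAT. These 10 genes were taken from 6765 genes that the array's annotation names with a single symbol, and they have 12 probe sets, the groups of array probes that each measure 1 transcript. GPX4 and PRDX4 have 2 probe sets each and the other 8 genes 1 each. A total of 11 of the 12, covering all 10 genes, had a mean level above the limit for testing, a log2 intensity of 3.36. The family was selected on the difference between these same arrays, in which the levels of GPX1, PRDX2 and SOD1 were low after stem cells. The differences between the groups given for the members are therefore a description, and no test is drawn from them.

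RNA came from drill biopsies of the heart in 13 female Sinclair miniswine, small pigs that were 3 months old when diagonal branches of the coronary artery along the front of the heart (the left anterior descending) were tied off for good. The stem cell group (7 animals) was then given 50000000 cells, called MPCs in the labels, in 2 ml saline, divided into 10000000 at each of 5 sites bordering the infarct. The saline group (6 animals) received 2 ml saline at 5 such sites. Both groups carried the infarct, no group without infarction is analysed here, and biopsies were taken after 4 months. Where each biopsy lay relative to the scar is not given per animal, and nothing in the labels says how many injected cells remained.

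Each animal gave 1 array, and precision is limited by how many arrays there are. The median intensity of the arrays lay between 13.5 and 14, and pairs of arrays correlated at 0.936 to 0.986 over the 14399 probe sets tested. Stem cells replicate 6 had the lowest mean correlation with the other arrays, 0.957 against up to 0.977, and some values without that animal are given below. Cardiomyocyte markers such as TNNC1, TNNT2 and ACTC1, which belong to the contractile filaments, were among the brightest transcripts, with log2 levels of 14.80, 14.73 and 14.82 after stem cells and 14.76, 14.79 and 14.70 after saline. The defining genes of heart muscle were thus present. No probe set of the 14399 had a difference between the groups at an adjusted p under 0.05 (limma, percent called 0). At an unadjusted p under 0.05, 5.15% of all tested probe sets were lower after stem cells and 5.4% were higher. Levels below are log2 intensities, all differences are log2 values, stem cells minus saline, and levels of different probe sets are not set against each other, since probes differ in how well they bind.

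Among the glutathione peroxidases, the difference of GPX1 was the widest of the 10 genes, while GPX3 differed by less than the SD between its animals and GPX4 by about as much. GPX1 is the main glutathione peroxidase of the cytosol and mitochondria and carries selenocysteine, as do GPX3 and GPX4. GPX1 (NCBI gene ID 397403) ran from 10.09 over a median of 10.65 to 11.39 after stem cells, against 10.99 over 11.49 to 12.20 after saline. In 6 of 7 stem cell animals GPX1 lay below the lowest saline animal. Stem cells replicate 7 alone, at 11.39, was inside the saline range, so the groups overlapped. The stem cell mean of GPX1 was 10.62 ± 0.44 (SD, n = 7) and the saline mean 11.53 ± 0.47 (SD, n = 6), a difference of -0.91 ± 0.23 (SE), or 0.532 times the saline level on the linear scale. With 1 animal left out it ranged from -1.04 without stem cells replicate 7 to -0.775 without saline replicate 2, and it was -0.822 without stem cells replicate 6.

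GPX3, the secreted glutathione peroxidase found in plasma, varied most between animals of the same group. GPX3 (gene ID 396598) ran from 8.50 over a median of 9.38 to 10.28 after stem cells and from 9.35 over 9.55 to 10.60 after saline. The groups overlapped broadly, with 3 of 7 stem cell animals below the lowest saline animal and 2 above the saline mean. The difference was -0.42 ± 0.29 (SE), and -0.242 without saline replicate 1, the animal with the highest level. GPX4 reduces lipid peroxides within membranes and guards against ferroptosis, a form of cell death driven by iron. The bright probe set of GPX4 (gene ID 399537) spanned 12.22 to 12.78 with a median of 12.44 after stem cells, against 12.37 to 12.92 with a median of 12.76 after saline, a difference of -0.22 ± 0.12 (SE). The second GPX4 probe set averaged 2.63 after stem cells and 2.68 after saline, close to the highest mean among control probe sets without a porcine target, 2.58, and was not tested.

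**Figure D1:**
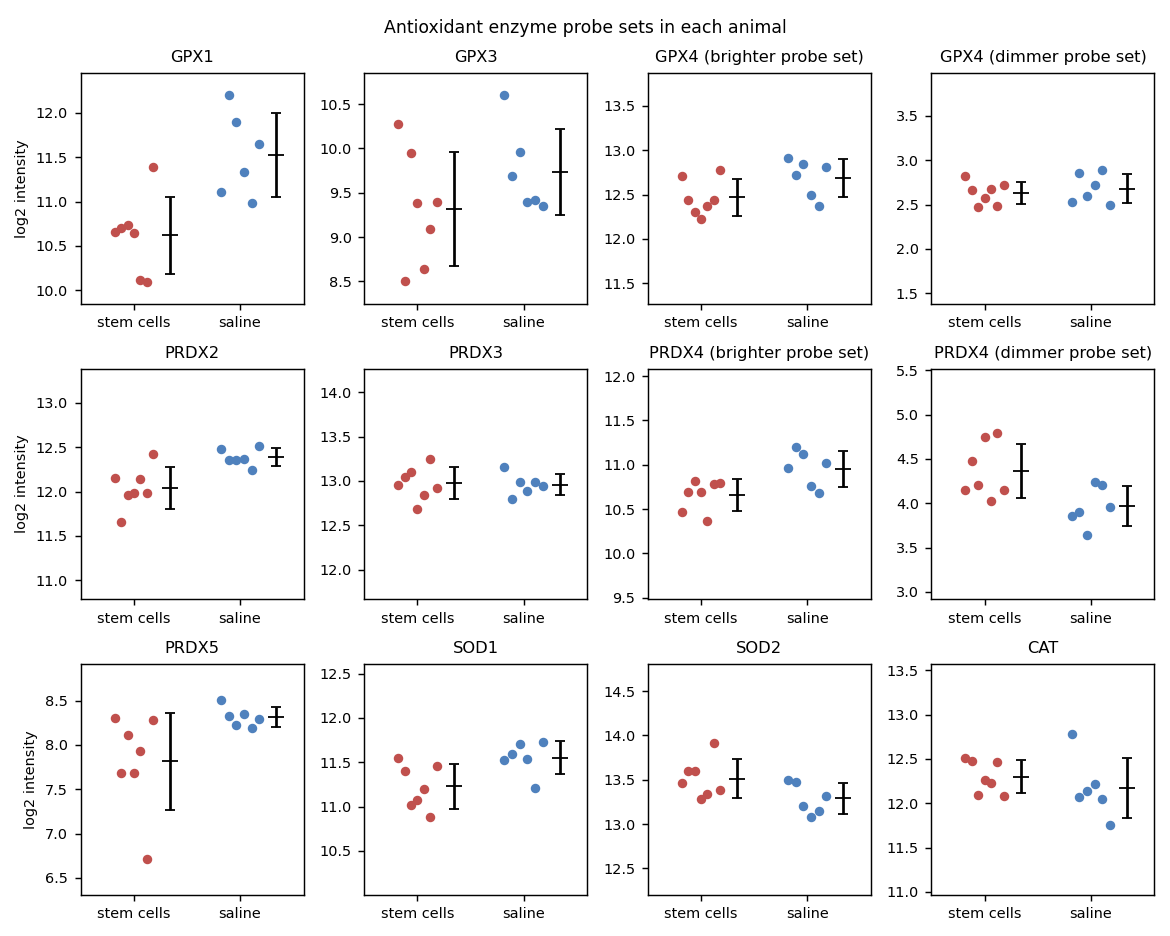
Log2 intensity (vertical axis, each panel spanning the same 2.6 log2 units) of the 12 probe sets in 7 stem cell animals (red, left) and 6 saline animals (blue, right); black bars give the mean and SD. GPX1 lies below the lowest saline animal in 6 of 7 stem cell animals, while 5 of 7 stem cell animals lie within the saline range of PRDX3, 1 below it and 1 above it.

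Among the 4 peroxiredoxins, PRDX2, PRDX5 and the bright probe set of PRDX4 had negative differences. PRDX3 had no settled sign, and the dim probe set of PRDX4 was positive. PRDX2 works in the cytosol and is abundant in red blood cells, and it (gene ID 100512521) ran from 11.65 over a median of 11.98 to 12.42 after stem cells, against 12.24 over 12.36 to 12.52 after saline. As with GPX1, 6 of 7 stem cell animals were below the lowest saline animal and stem cells replicate 7 was inside the saline range. The SD was 0.23 after stem cells and 0.099 after saline, where the animals lay close together. The difference was -0.35 ± 0.11 (SE), and -0.335 without stem cells replicate 6.

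PRDX5, which is found in mitochondria, peroxisomes and the cytosol, ranged from 6.71 over a median of 7.93 to 8.31 after stem cells and from 8.19 over 8.31 to 8.50 after saline (gene ID 397273). In 5 of 7 stem cell animals it was below the lowest saline animal. The difference of -0.50 ± 0.22 (SE) rested in part on stem cells replicate 6, the lowest animal at 6.71, and was -0.315 without it. PRDX3, the peroxiredoxin confined to mitochondria, ranged from 12.69 over 12.95 to 13.24 after stem cells and from 12.79 over 12.97 to 13.16 after saline (gene ID 100154143). Its difference of 0.013 ± 0.095 (SE) had no settled sign: it was negative in 4 of 13 fits with 1 animal left out, and -0.0214 with array weights.

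PRDX4 acts in the endoplasmic reticulum and is secreted, and its 2 probe sets ran in opposite directions. The bright one (gene ID 100152260) ran from 10.37 over a median of 10.70 to 10.81 after stem cells, against 10.68 over 10.99 to 11.20 after saline. Every one of the 7 stem cell animals was under the mean of saline, 4 of 6 saline animals lay above the highest stem cell animal, and the difference was -0.30 ± 0.12 (SE). The dim one ran from 4.03 over 4.21 to 4.79 after stem cells and from 3.64 over 3.93 to 4.24 after saline, a difference of 0.40 ± 0.15 (SE). That probe set lay little above the limit for testing, and which of both reflects the PRDX4 transcript was not tested.

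The differences of the superoxide dismutases had opposite signs. SOD1, the copper and zinc enzyme of the cytosol, ran from 10.88 over a median of 11.20 to 11.55 after stem cells, against 11.21 over 11.57 to 11.73 after saline (gene ID 397036). A count of 4 of 7 stem cell animals lay below the lowest saline animal, which was replicate 5, and the others lay within the saline range. The difference was -0.32 ± 0.13 (SE), -0.265 without stem cells replicate 6, and -0.201 ± 0.15 (SE) with the EF1A ratio described below as a covariate.

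SOD2, the manganese enzyme of the mitochondrial matrix, ran from 13.29 over a median of 13.46 to 13.92 after stem cells, against 13.09 over 13.26 to 13.50 after saline (gene ID 100154319). The groups overlapped, with 3 of 7 stem cell animals above the highest saline animal, and the difference was 0.22 ± 0.11 (SE), and 0.157 without stem cells replicate 6. Catalase, the peroxisomal enzyme that splits hydrogen peroxide without a partner, spanned 12.08 to 12.51 with a median of 12.26 after stem cells and 11.76 to 12.78 with a median of 12.11 after saline (gene ID 397568). Its difference of 0.13 ± 0.14 (SE) was smaller than its error, and moved to 0.254 without saline replicate 1, to 0.0496 without saline replicate 6 and to 0.00917 with array weights.

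Of the 11 tested probe sets, 7 had a negative difference, against 47.2% of all probe sets tested, and 4 a positive one, among them the dim PRDX4 set. Their median difference was -0.297, beside 0.0169 over all probe sets tested. At an unadjusted p under 0.05 (limma), 5 were lower and 1 was higher, beside 5.15% and 5.4% of all probe sets tested. GPX1, PRDX2 and SOD1, on which the family was chosen, were among those 5. None was called after adjustment over all probe sets (adjusted p of 0.393 to 0.967, limma). In none did all stem cell animals lie below all saline animals, as 0.16% of all tested probe sets did. The choice of the family set these counts in part, so no test is drawn from them, and how far it did so was not tested. Without stem cells replicate 6 the count of negative differences was 8, with PRDX3 at -0.0324, and the median was -0.265. Of the 3 genes with no negative difference, PRDX3 and SOD2 encode enzymes of the mitochondrial matrix, though the sign of PRDX3 was not settled. GPX1 and PRDX5, whose enzymes are found in mitochondria and elsewhere in the cell, were negative at -0.91 and -0.50. A link between sign and compartment was not tested.

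**Figure D2:**
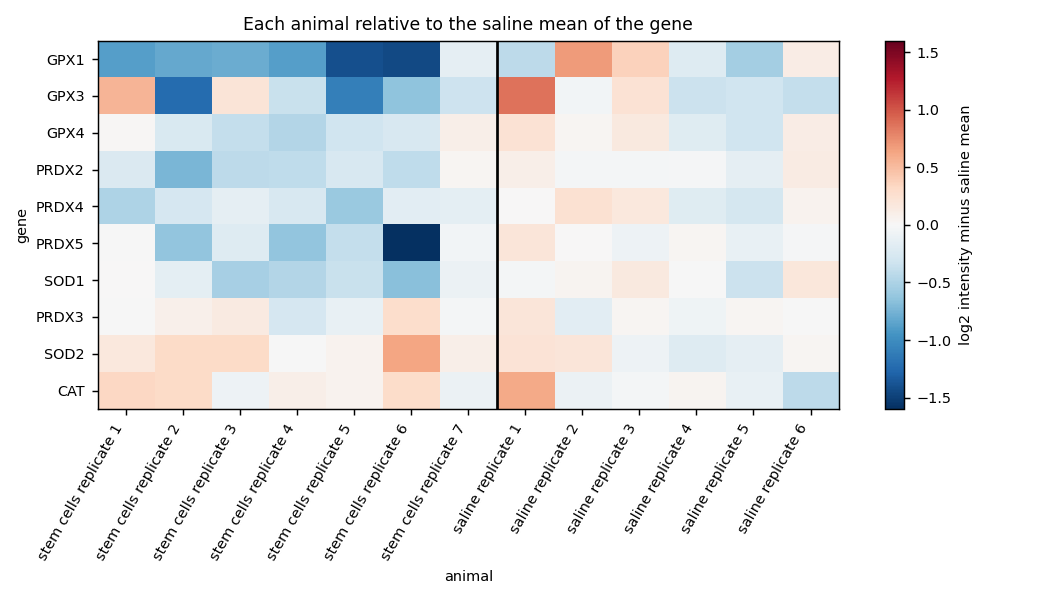
Log2 intensity of the brightest probe set of each gene minus the saline mean of that gene (colour, red higher and blue lower) in 7 stem cell animals, left of the line, and 6 saline animals, right of it. GPX1 is blue in all 7 stem cell animals, and stem cells replicate 6 has the lowest GPX1, PRDX5 and SOD1 and the highest PRDX3 and SOD2 of its group.

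Animals differed in which enzymes were low. Stem cells replicate 6 had the lowest GPX1, PRDX5 and SOD1 of its group and the highest PRDX3 and SOD2. Stem cells replicate 7 had the highest GPX1, GPX4 and PRDX2. Among saline animals, replicate 5 was lowest in 6 of the 10 genes and replicate 1 highest in 6, counting the brightest probe set of each gene.

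The spread within groups does not depend on the difference between them and could be set against other transcripts. The SD of GPX1 within groups was 0.453, wider than that of 82.6% of 1058 tested probe sets whose mean level lay within 1 log2 unit of it. GPX3 was wider than 86.4% of its 1869 counterparts, at 0.578. PRDX4 (bright probe set), PRDX3 and PRDX2 lay at the steady end, wider than 13.3%, 17.2% and 18.1% of probe sets of like level, with SDs of 0.189, 0.157 and 0.186. SOD1 and GPX4 were wider than 29.5% and 32.8%, and SOD2, CAT and PRDX5 than 44.2%, 51% and 55%.

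Whether animals low in GPX1 for their group were also low in the other enzymes was asked after the mean of each group had been removed, over 13 animals and 9 pairs of genes. GPX1 went most closely with PRDX4, with Pearson's r of 0.66 (permutation p of 0.0146, adjusted 0.12 over 9 pairs) and Spearman's rho of 0.75 (permutation p of 0.00459, adjusted 0.0413). Leaving out single animals, the rank correlation passed in 4 of 13 fits, with rho from 0.60 to 0.87, and Pearson's r, from 0.58 to 0.82, passed only without stem cells replicate 6. Without the 2 animals farthest from the median of GPX1, stem cells replicate 7 and saline replicate 2, r was 0.55. Within the groups r was 0.44 among stem cell animals and 0.88 among saline animals.

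SOD1 followed, with r of 0.61 (permutation p of 0.0267, adjusted 0.12) and rho of 0.68 (permutation p of 0.0125, adjusted 0.0564), and r was 0.62 without the same 2 animals. GPX4 had r of 0.47 (permutation p of 0.107, adjusted 0.282) and rho of 0.57 (permutation p of 0.0485, adjusted 0.145). The weakest pair was GPX1 and SOD2, at r of -0.093, and GPX1 ran against CAT at -0.42 (adjusted permutation p of 0.282) and against PRDX3 at -0.37 (adjusted permutation p of 0.312). PRDX2, which resembled GPX1 in its group values, had r of 0.28 with it (permutation p of 0.355, adjusted 0.456), and -0.11 without the 2 farthest animals.

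**Figure D3:**
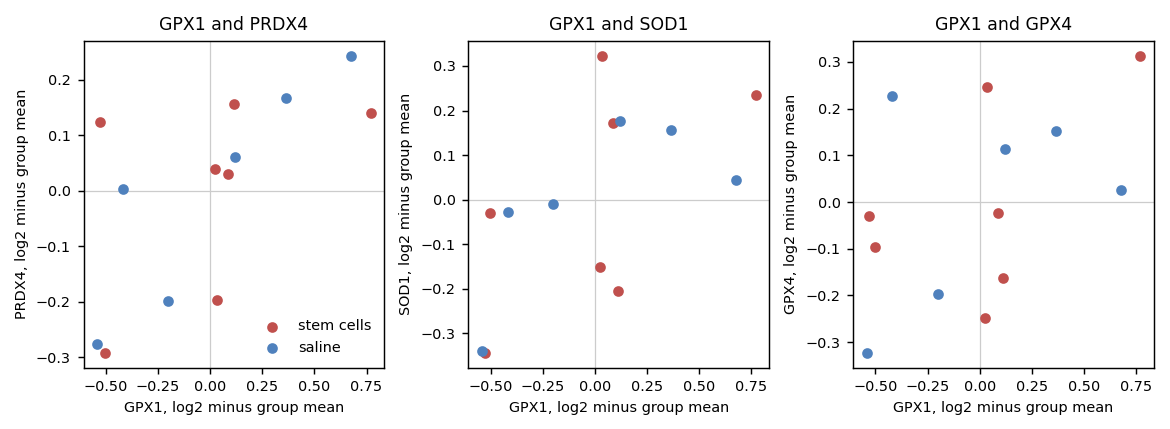
Log2 intensity minus the mean of the animal's own group for GPX1 (horizontal axes) against PRDX4, SOD1 and GPX4 (vertical axes), 1 point per animal (red, 7 stem cell; blue, 6 saline). Points rise to the right in each panel, with Pearson's r of 0.66, 0.61 and 0.47 over 13 animals.

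Over all 45 pairs of the 10 genes, given as a description, 31 correlated positively within groups and the median r was 0.22. The closest pairs were GPX4 with SOD1 at 0.74 and PRDX3 with SOD2, both matrix enzymes, at 0.70. The pair furthest apart was PRDX5 and SOD2, at -0.50. Stem cells replicate 6 had the lowest PRDX5, at 6.71, and the highest SOD2 and PRDX3, at 13.92 and 13.24, of its group. Neither the pair of PRDX5 and SOD2 nor that of PRDX3 and SOD2 was computed without this animal. Among the 7 genes with a negative difference 20 of 21 pairs were positive, with a median of 0.37, and across to PRDX3, SOD2 and CAT 8 of 21 were positive, with a median of -0.10. The genes were sorted here by their group differences, after these were seen. This split was not repeated without stem cells replicate 6, the lowest of its group in GPX1, PRDX5 and SOD1 and the highest in PRDX3 and SOD2. The share of positive pairs among genes outside the family was not computed, and a shared control of these genes was not tested. Outside the family, the 5 genes most like GPX1 within groups were SRA1 (r of 0.90), EIF3I (0.90), NUCKS1 (0.85), RCC2 (0.83) and LRMDA (0.79). These were the highest r among tested probe sets with 1 symbol, over the same 13 arrays and 1 shared normalization. Of all 14398 other probe sets, with or without a symbol, 4.19% had an r above 0.5. The r that chance gives at the top of such a search was not computed.

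The other genes of peroxide and redox handling were taken as whole lists, with 88 genes tested of 107 on the array. Of these 66 had a negative difference, beside 47.2% of all probe sets tested, and the median was -0.125. At an adjusted p of 0.05 over all probe sets, 0 of them passed (limma). At an unadjusted p under 0.05, 11 were lower and 2 higher, beside 5.15% and 5.4% of all probe sets. The count of 11 became 7 without stem cells replicate 6, saline replicate 3 or saline replicate 6. The lists overlap in a few genes. The values below describe genes that did not pass after adjustment, with an adjusted p of at least 0.393. In each list the 2 genes with the smallest p are named, so these too were picked on their values and are not typical of their list.

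Genes that serve the members as partners included the list of copper, zinc and manganese handling. In it 6 of 7 tested genes were negative, with a median of -0.618. CCS, the chaperone that loads copper into SOD1, ranged from 4.54 over a median of 4.72 to 5.15 after stem cells and from 5.15 over 5.32 to 5.66 after saline. In 6 of 7 stem cell animals CCS lay below the lowest saline animal, and the difference was -0.52 ± 0.15 (SE), between -0.574 and -0.456 with 1 animal left out. SLC31A1, the copper importer of the plasma membrane, differed by -0.68 ± 0.22 (SE), and 4 of 7 stem cell animals were below all saline animals. ATOX1, which carries copper to the secretory pathway, was at -0.82 ± 0.38 (SE), and the zinc and manganese importer SLC39A14 at 0.27 ± 0.13 (SE). ATOX1 and SLC39A14 are named because their unadjusted p was under 0.05, which was known when they were picked.

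Among the other selenoproteins and the genes of their synthesis, 6 of 11 tested genes were negative and the median was -0.0166. SELENOH, a selenoprotein of the nucleus, ran from 6.85 over 7.75 to 8.69 after stem cells and from 8.23 over 8.85 to 9.75 after saline, a difference of -1.12 ± 0.31 (SE). SELENOW, a small selenoprotein of muscle, was at -0.44 ± 0.14 (SE), and 5 of 7 stem cell animals were below all saline animals for either gene. SELENOP, the plasma carrier of selenium, went the other way at 0.36 ± 0.12 (SE), with 5 of 7 stem cell animals above all saline animals, and is named here after its value was seen. Selenoproteins thus included both signs, GPX1 and SELENOH on one side and SELENOP on the other.

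In the thioredoxin and glutaredoxin system 10 of 14 genes were negative, with a median of -0.227. MSRA, which repairs oxidised methionine, was at -0.53 ± 0.20 (SE), the mitochondrial glutaredoxin GLRX2 at -0.48 ± 0.21 and the cytosolic GLRX, named after its value was seen, at -0.87 ± 0.40. In glutathione synthesis and transfer 8 of 12 were negative, with HAGH, a glyoxalase that releases glutathione, at -0.38 ± 0.16 and GSTZ1, a glutathione transferase, at -0.35 ± 0.19. For NADPH supply the count was 9 of 11, with TALDO1 of the pentose phosphate pathway at -0.44 ± 0.14 and the cytosolic isocitrate dehydrogenase IDH1 at -0.26 ± 0.20. For NRF2, the transcription factor that drives many antioxidant genes, and its targets the count was 11 of 12, with a median of -0.11. There PARK7, a redox-sensitive protein, was at -0.31 ± 0.12 and SQSTM1, an adaptor that binds the NRF2 inhibitor KEAP1, at -0.16 ± 0.13.

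The remaining peroxidases and dismutases gave 2 negative of 4 tested, with GPX2 at -0.21 ± 0.13 (SE) and PRDX1 at -0.20 ± 0.12, while GPX5, GPX6 and SOD3 were too dim to test. Sources of superoxide were negative in 8 of 8 tested, with NCF1, a subunit of the phagocyte oxidase, at -0.36 ± 0.20 and the small GTPase RAC1 at -0.26 ± 0.20, and with a median of -0.256. None of these 8 had an unadjusted p under 0.05, and DUOX1, DUOX2, NCF4 and NOS2 were too dim to test. Peroxisomal genes, which include the compartment of catalase, were negative in 11 of 14 but with a median of -0.027. PEX3 and PEX16, which build the peroxisomal membrane, were at 0.22 ± 0.17 and -0.17 ± 0.17.

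**Figure D4:**
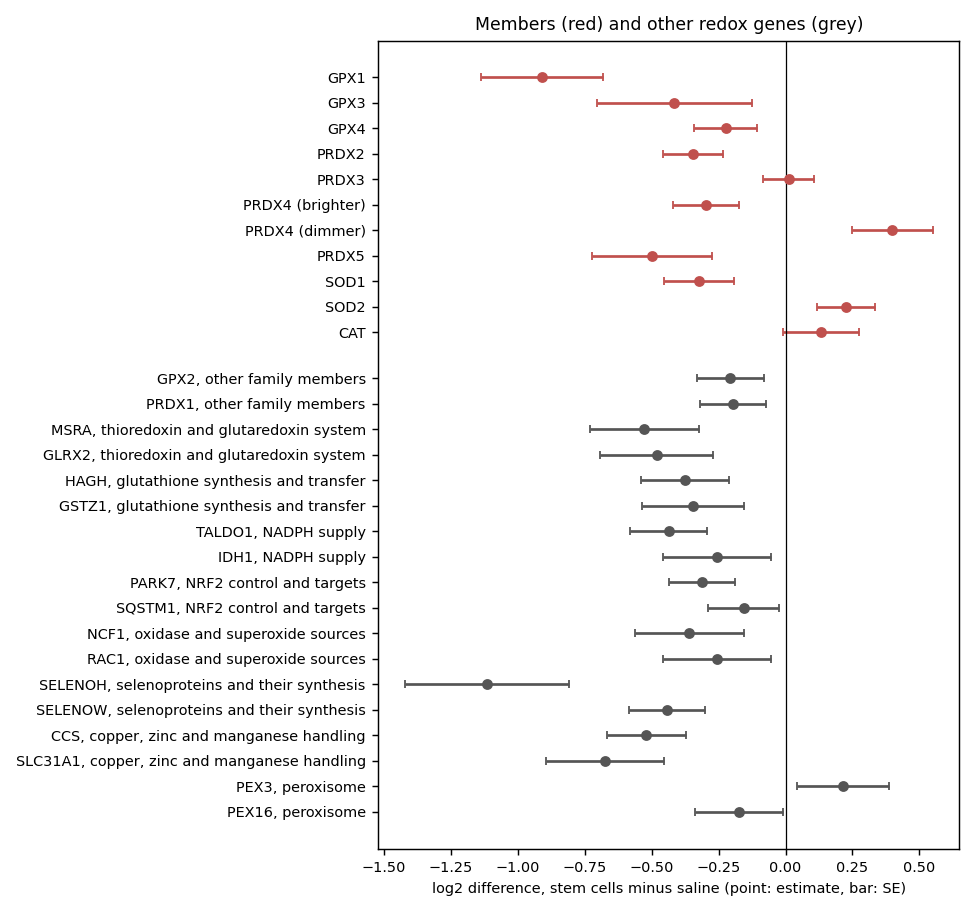
Log2 difference, stem cells minus saline (horizontal axis, point with SE), of the 11 tested member probe sets (red) and of the 2 genes with the smallest p in each of 9 redox lists (grey). GPX1 and SELENOH lie farthest to the left, at -0.91 and -1.12, and no gene shown passed at an adjusted p of 0.05.

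In whole biopsies, fewer cells of a type and less RNA per cell cannot be told apart. Red blood cells are rich in PRDX2, GPX1 and catalase. Of their markers the globin HBB had a stem cell mean of 10.03 ± 0.35 (SD, n = 7) and a saline mean of 9.72 ± 0.34 (SD, n = 6), a difference of 0.31 ± 0.19 (SE), ALAS2 was at 0.032 ± 0.39, and AHSP, HBE1 and KLF1 were too dim to test. Macrophage and monocyte markers had 9 of 11 negative differences, beside 47.2% of all probe sets tested. At an unadjusted p under 0.05 (limma), 2 of them were lower, beside 5.15% of all probe sets tested. The mean log2 level of these markers was 6.93 to 7.97 after stem cells and 7.28 to 8.17 after saline. Cardiomyocyte markers had 3 of 13 negative, with mean levels of 13.71 to 13.97 after stem cells and 13.63 to 13.87 after saline.

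Smooth muscle and pericyte markers were negative in 7 of 10, with 3 lower at an unadjusted p under 0.05 (limma). The shares over all probe sets tested were 47.2% and 5.15%. Mean levels of these markers were 8.75 to 9.72 after stem cells and 9.39 to 10.13 after saline. The difference of those mean levels was -0.37 (two-sided exact permutation p of 0.107, adjusted 0.346 over 12 array measures). At an unadjusted p under 0.05, 1 endothelial marker was lower and 1 higher, and 1 fibroblast and matrix marker was higher. Endothelial markers were negative in 8 of 11 (6.79 to 7.62 after stem cells and 7.19 to 7.92 after saline), and fibroblast and matrix markers in 6 of 14 (7.90 to 9.74 after stem cells and 8.05 to 9.93 after saline). Fat cell markers were negative in 2 of 4 tested, and ADIPOQ, CIDEA, LEP, LIPE and RBP4 were too dim to test. Lymphocyte and neutrophil markers were negative in 2 of 3 tested, and CD3D, CD3E, CD3G, CD4, CD79B, S100A12 and S100A8 were too dim. The part of any cell type in the differences of the members was not tested. With cardiomyocyte minus fibroblast marker level as a covariate, GPX1, PRDX2 and SOD1 were at -0.899, -0.353 and -0.322. Those marker levels differed between the groups by only 0.078 and 0.0045, so this covariate could move the differences little. The markers of the other cell types were not part of it.

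Respiratory chain genes, which sit where most superoxide arises, had 28 of 34 negative differences, beside 47.2% of all probe sets tested. At an unadjusted p under 0.05 (limma), 12 of them were lower, beside 5.15% of all probe sets tested. Their mean level in stem cell animals was 12.61 ± 0.20 (SD, n = 7), and in saline animals 12.81 ± 0.11 (SD, n = 6) (two-sided exact permutation p of 0.0355, adjusted 0.276 over 12 array measures). The EF1A control transcript has a probe set at either end, and the log2 ratio of its 3' end over its 5' end increases as RNA degrades. That ratio was 0.815 ± 0.11 (SD, n = 7) in stem cell animals and 0.947 ± 0.098 (SD, n = 6) in saline animals (two-sided exact permutation p of 0.046, adjusted 0.276). With that ratio as a covariate GPX1 was at -0.887 and PRDX2 at -0.407, and SOD1 had the smaller value given above. None of the other 10 measures, 8 marker lists and the ratios of GAPDH and actin, had an exact permutation p under 0.05.

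Set against these 12 measures within groups, GPX1, PRDX2 and SOD1 gave 36 correlations, of which 0 passed at an adjusted permutation p of 0.05 by Pearson's r or by Spearman's rho. The largest by Pearson's r was that of PRDX2 with the actin 3' to 5' ratio, a sign of RNA quality, at r of -0.65 and rho of -0.40 (adjusted permutation p of 0.338 and 0.525), with r of -0.33 without the 2 farthest animals. PRDX2 also ran against the GAPDH 3' to 5' ratio, at r of -0.58 and rho of -0.37 (adjusted permutation p of 0.338 and 0.538), with r of -0.38 without the 2 farthest animals. The part of RNA quality in the level of PRDX2 was not tested. PRDX2 went with the respiratory chain level at r of 0.61 and rho of 0.75, with r of 0.64 without the 2 farthest animals, and SOD1 at r of 0.52 and rho of 0.55, with r of 0.46 without the 2 farthest animals (adjusted permutation p for r of 0.338 and 0.387). SOD1 ran against the cardiomyocyte markers at r of -0.61 and rho of -0.47 (adjusted permutation p for r of 0.338), and r was -0.38 without the 2 farthest animals. By rank, SOD1 had rho of 0.62 with the lymphocyte and neutrophil markers and 0.56 with the EF1A ratio (adjusted permutation p of 0.472 for either). The r of these pairs was 0.50 and 0.42, and 0.19 and 0.47 without the 2 farthest animals. Among stem cell animals r was 0.81 and 0.71, and among saline animals -0.15 and -0.070. The lymphocyte and neutrophil level rests on 3 tested genes. GPX1 had its largest r with the cardiomyocyte markers, at -0.44 with rho of -0.43 (adjusted permutation p of 0.474 and 0.525). That r was -0.077 among stem cell animals and -0.97 among saline animals. GPX1 had r of 0.16 with the respiratory chain level and 0.25 with the macrophage markers (adjusted permutation p of 0.823 and 0.706). With the red blood cell markers r was 0.40 for GPX1, 0.54 for SOD1 and 0.32 for PRDX2 (adjusted permutation p of 0.518, 0.387 and 0.693). Without the 2 farthest animals these r were 0.21, 0.40 and 0.35.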

How the data were processed

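The authors deposited linear intensity values per probe set from GCRMA, per the submitters' processing notes, a method that corrects background, normalizes between arrays and summarises probes. The sources used here give neither its version nor its settings. Since normalization sets arrays to each other, shifts common to most genes are removed. Labels call the animals separate samples. The members and gene lists were chosen with earlier results of these data known.

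Without 124 control probe sets, 23999 remained, and log2 of the deposited intensity was used. The platform annotation gave 10069 of these 1 symbol, 198 several and 13732 none; the 12 member probe sets matched a pig gene table (Sscrofa11.1) by gene ID and 0 symbols changed. No build is stated, so no coordinates are given. No sequence table of pig proteins or promoters was used here.

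Probe sets with a mean above the 40th percentile were tested, 14399 in all, with R 4.3.3 and limma 3.58.1 (lmFit, eBayes with trend, Benjamini-Hochberg, threshold 0.05). On 10 simulated sets of 14399 probe sets with 200 changed, changes of 0.5, 1 and 2 on the log2 scale were recovered in 19.6%, 68.1% and 95.9%, and 0.0472% of unchanged probe sets were called. Correlations used log2 values minus group means, the brightest probe set per gene, and 100000 permutations. Array measures were compared over all 1716 splits. Named genes were all members, the 2 genes with the smallest p per redox list, 3 bright markers per cell type and the 5 genes most like GPX1; markers are mostly given as ranges.

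Alternatives were other filters, normalizations and variance models, array weights, a floor, 1 probe set per gene, covariates, a replicate block, and leaving out each animal. Animals with the same replicate number correlated at -0.266 to 0.237 in their deviations over 6 pairs, so the numbers were not taken to pair them.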

Additional observations from a re-analysis of the deposited data

Results flagged for a closer look

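Among 130 groups of values checked for a sample far from the rest, 5 held one, where chance gives about 1 in 20 groups. One concerned a member: PRDX5 in stem cells replicate 6 was at a log2 intensity of 6.71, with the nearest stem cell animal at 7.69. That array also had the lowest mean correlation with the others.

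The other 4 were genes named beside the members. PEX16 was high in saline replicate 2, at 4.54 with the nearest animal at 4.12. CD2, a lymphocyte marker, was high in the same animal, at 4.26 with the nearest animal at 3.67. TNNT2 was high in saline replicate 1, at 14.88 with the nearest at 14.79. FABP4, a fat cell marker, was low in saline replicate 6, at 10.39 with the nearest at 11.63.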

How the results depend on the processing

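Of 273 alternative values of the member differences, 5 changed sign, all of them PRDX3. The small difference of PRDX3 moved by over 1.5 times under many alternatives, such as from 0.0128 to 0.0734 after a second quantile normalization. Among the other genes, differences moved by over 1.5 times for GPX3 (without saline replicate 1), PRDX5 (without stem cells replicate 6), SOD1 (EF1A ratio as a covariate) and CAT (array weights, and without saline replicate 1 or 6), with the values given above. The count of negative members was 7 or 8 under every alternative, and their median lay between -0.352 and -0.201. Calls over all probe sets were 0 in every fit except without saline replicate 5, where there was 1 (range 0 to 1): HIGD1B, a pericyte gene named after this was seen, at -0.72 (adjusted p of 0.0222, limma, against 0.423 with all animals). Probe sets higher at an unadjusted p under 0.05 numbered 777, and 491 without stem cells replicate 6 and 505 with the EF1A ratio as a covariate; that covariate left 6 other redox genes lower instead of 11, and 1 higher instead of 2. The replicate block changed no call (0 over all probe sets) and gave GPX1, PRDX2 and SOD1 differences of -1.04, -0.408 and -0.361; the numbers do not pair the animals. Pearson correlations of GPX1 with the members passed in 0 to 1 pairs with 1 animal left out; PRDX4 passed without stem cells replicate 6, at r of 0.82 (adjusted permutation p of 0.00972). By rank, 2 pairs passed with each array centred on its median and 0 after a second quantile normalization. The cause was not tested for any of these. GPX1 has 1 probe set, so the alternative with its other probe sets was not run. Dim probe sets (GPX4 second set, PRDX4 second set) have the least signal over background.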
